A study of Mus musculus with 27 samples.

Results

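The genes described here are 10 genes of cholesterol efflux and of the liver X receptors (LXRs) in a mouse macrophage line: Nr1h2, Nr1h3, Abca1, Abcg1, Apoe, Pltp, Lipg, Lpcat3, Mylip and Plin2. They were taken by gene symbol from a deposited table of 55483 genes, in which each symbol had 1 row, and all 10 passed the filter on low counts in every fit. Abca1 and Lipg were put on the list because they fell under the compound TM7nox, so their values in that contrast are given as a description with no test.

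The cells were RAW264.7, a macrophage line derived from a mouse leukaemia, harvested after 6 h in 1 of 3 treatments. The groups were DMSO (the solvent), LPS at 1 µg/ml with DMSO (called LPS below), and LPS at 1 µg/ml with TM7nox at 10 µM. LPS is lipopolysaccharide of bacterial cell walls, which activates macrophages. TM7nox is a tanshinone mimic, of a family of small molecules made to interfere with RNA binding by the protein HuR (encoded by Elavl1). Each treatment had 4 total RNA libraries, 4 libraries of RNA pulled down with anti-HuR (RNA immunoprecipitation, RIP) and 1 library recovered with control IgG, which was replicate 3. All samples came from 1 cell line, and no label says that replicates were separate cultures. The p-values therefore measure the spread between these samples, which may be technical.

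LXRs are nuclear receptors that are switched on by oxysterols, which are oxidised forms of cholesterol. With RXR partners they raise genes that carry cholesterol out of the cell and remodel lipids, and in macrophages this limits the build-up of foam cells. HuR binds U-rich and AU-rich stretches, mostly in 3′ untranslated regions (UTRs) and introns, and is known for stabilising many mRNAs of inflammation.

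The RNA libraries held 2.73 M to 28.3 M counts, the RIP libraries 19.8 M to 41.4 M and the IgG libraries 8.87 M to 24.5 M. The shallowest, RNA DMSO replicate 1 with 2.73 M, bears on Nr1h3 and Apoe below. Levels are given as CPM, read counts scaled to library depth. In total RNA the 9 macrophage markers together reached 5200 to 6450 CPM with DMSO, 4900 to 6880 with LPS, and between 3330 and 6130 with LPS+TM7nox, and each had counts in every group. In RIP they summed to 1170 to 1900 CPM with DMSO, 2170 to 3170 with LPS and 840 to 1980 with LPS+TM7nox, so that LPS lay above both without overlap, as it did for Abca1 and Lipg in RIP. The 4 T cell markers summed to 1.35 to 4.03, 7.41 to 8.95 and 9.04 to 12.4 CPM in the same order. Nearly all of this was Lck (2.41, 8.16 and 10.8 CPM on average), while Cd2 was at 0 in all 3 groups. The 4 B cell markers summed to at most 0.225 CPM with DMSO, 1.78 to 3.98 with LPS and 1.61 to 4.30 with LPS+TM7nox, nearly all from Pax5 (0, 2.59 and 2.77 CPM on average), and in RIP to between 11.8 and 16.9 with LPS and between 14.5 and 32.5 with LPS+TM7nox. The 4 fibroblast markers summed to at most 0.158 CPM in RNA, and the 4 epithelial markers to at most 0.385. The part of the macrophage sum in RIP and of the Lck and Pax5 levels in the results was not tested. In bulk samples, fewer cells of a type and less RNA per cell cannot be told apart.

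Coordinates are on GRCm39, from the GENCODE M39 annotation. Abca1 (ENSMUSG00000015243) lies on chromosome 4 at 53030787 to 53159900, minus strand, with 50 exons in its main transcript, and Plin2 (ENSMUSG00000028494) on the same chromosome at 86565912 to 86588459. No other annotated gene overlaps either, nor Nr1h2 (ENSMUSG00000060601) on chromosome 7 at 44199036 to 44203406. Abcg1 (ENSMUSG00000024030) lies on chromosome 17 at 31276649 to 31336969 and Mylip (ENSMUSG00000038175) on chromosome 13 at 45543215 to 45565501. Each shares its strand with 1 predicted gene inside the same interval, and reads there could have gone to either gene. Nr1h3 (ENSMUSG00000002108) on chromosome 2 at 91014394 to 91033417 is overlapped by Acp2, Gm13783 and Gm23390. Pltp (ENSMUSG00000017754) on chromosome 2 at 164677702 to 164701743 is overlapped by Ctsa, Lpcat3 (ENSMUSG00000004270) on chromosome 6 at 124639765 to 124684440 by Emg1 and 2 predicted genes, and Apoe (ENSMUSG00000002985) on chromosome 7 at 19430034 to 19434947 by Gm71725. The values of these 4 genes are uncertain to that extent.

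The promoter of Abca1 is shown because the gene is a known LXR target. The RefSeq promoter table (GRCm38.p6, 250 bases before to 50 after a start) held 8 of the 10 members, all but Abcg1 and Lipg. The 300 bases of Abca1 are at chr4:53159846-53160145, minus strand, with an E-box and a direct repeat in capitals.
Abca1 promoter: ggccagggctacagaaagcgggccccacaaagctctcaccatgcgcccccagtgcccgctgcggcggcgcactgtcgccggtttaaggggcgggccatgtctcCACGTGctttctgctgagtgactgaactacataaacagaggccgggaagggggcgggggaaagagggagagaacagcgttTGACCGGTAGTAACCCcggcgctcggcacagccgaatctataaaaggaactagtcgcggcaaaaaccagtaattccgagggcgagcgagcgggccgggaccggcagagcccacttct

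The repeat sought was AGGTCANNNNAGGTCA, the direct repeat spaced by 4 bases (DR4) to which LXR and RXR bind, on both strands. With at most 2 mismatches it was in 0 of the 11 promoters of these 8 genes and in 3.02% of all 32851 promoters in the table. With 3 mismatches, a limit chosen after the letters had been seen, it matched Abca1 67 bases before the start, on the strand opposite to the one printed, and 21.9% of all promoters. The E-box CACGTG lay 147 bases before the start of Abca1 and 4 before that of Plin2, and in 7.15% of all promoters. The NF-kB consensus decamer (at most 1 mismatch) was in 2.72% of all promoters and the AP-1 motif TGACTCA in 5.20%, and neither was in a member's window. These matches describe letters in a short window and say nothing of a factor's binding.

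HuR is known to bind AU-rich stretches, so the pentamer AUUUA was counted in the 3′ UTR of each member's main transcript. Abca1 had 6 in 3156 bases, Lipg 5 in 1995, Abcg1 3 in 3710 and Mylip 2 in 1512. Nr1h2 and Pltp each had 1, in 373 and 188 bases, and Nr1h3, Apoe, Lpcat3 and Plin2 had 0 in 287, 271, 635 and 468 bases. The median over 10990 of 11213 coding genes tested was 2 in 1354.5 bases, and 73.5% had at least 1. The U share was between 21.2% (Nr1h2) and 31.9% (Abca1), around a median of 29.2%. One window of 30 bases is shown for Mylip, which anti-HuR recovered above the typical gene, and for Abca1, which it recovered below it. AUUUA is in capitals (GRCm39; chr13:45565369-45565398 plus strand and chr4:53032086-53032115 minus strand).
Mylip: auuccaagagguAUUUAuuuuuucacuugu
Abca1: uuugcuauccuuAUUUAacuucuucuaaaa

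Between genes, levels were compared as CPM per kb of annotated exon, in total RNA. In DMSO the order of mean levels was Nr1h2 (10.9 ± 1.60, SD, n = 4), Abcg1 (8.97 ± 2.86), Plin2 (5.67 ± 1.86), Pltp (2.85 ± 0.725), Mylip (2.66 ± 0.458), Lpcat3 (1.44 ± 0.356), Nr1h3 (1.20 ± 0.850), Abca1 (0.753 ± 0.0954), Apoe (0.511 ± 0.300) and Lipg (0.0137 ± 0.0124). The ranges of neighbours overlapped from Nr1h2 to Plin2, between Pltp and Mylip, and from Lpcat3 to Apoe. Lipg lay below all others in every library. In LPS, Nr1h2 (14.9 ± 3.02), Plin2 (13.7 ± 3.77) and Lipg (13.4 ± 6.73) led with overlapping ranges, and Abca1 (5.18 ± 0.791) stood beside Abcg1 (5.14 ± 0.368). In LPS+TM7nox, Nr1h2 (19.1 ± 3.13) and Plin2 (17.4 ± 4.27) led. Lipg (1.55 ± 1.06) then took the fifth place and Abca1 (0.922 ± 0.0927) the ninth.

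**Figure D1:**
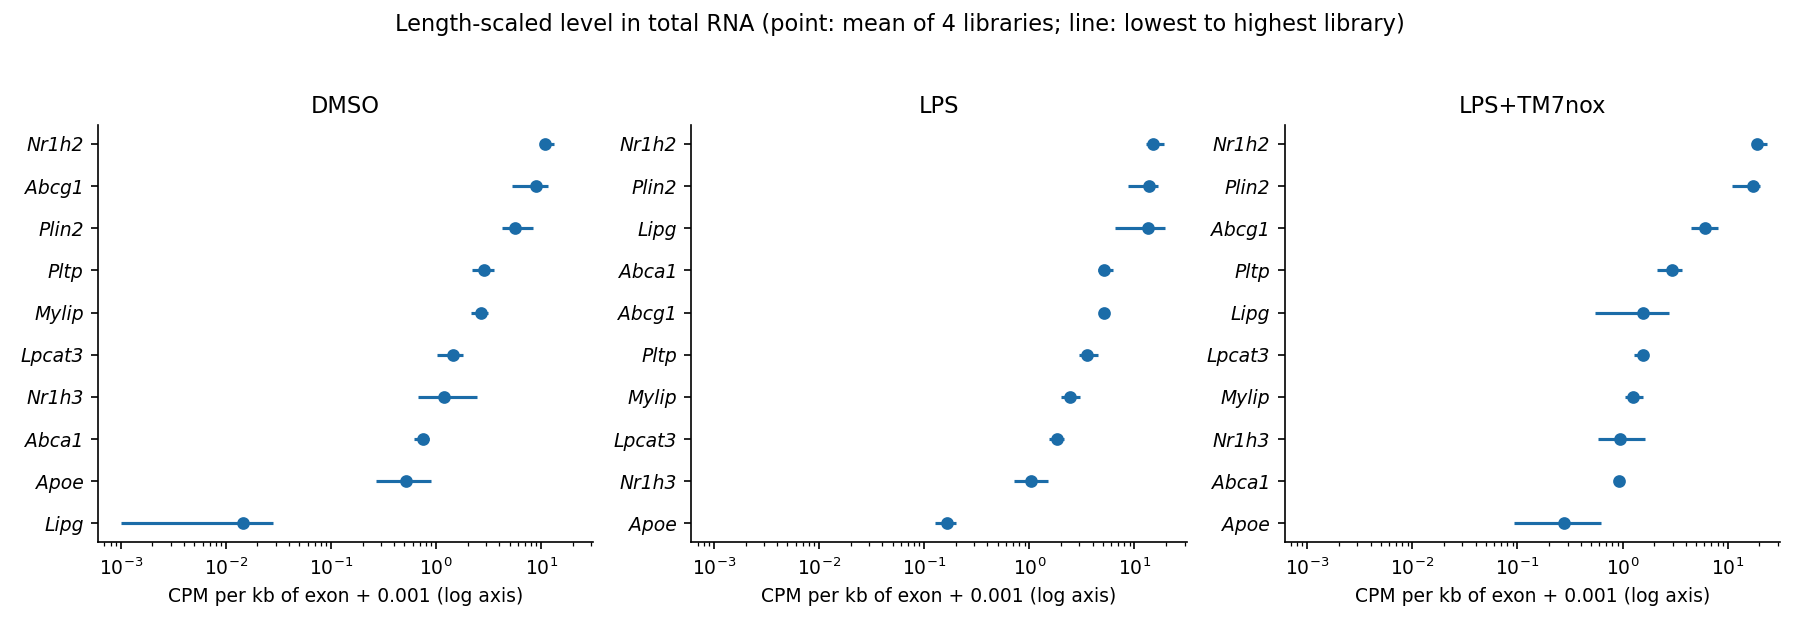
Level of each gene in total RNA, as CPM per kb of exon (log axis, 0.001 added), ordered within each treatment; points are means of 4 libraries and lines run from the lowest to the highest. Nr1h2 led in each treatment, and Lipg moved from the tenth place in DMSO to the third in LPS.

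LPS and DMSO were compared in total RNA to measure how activated cells changed these genes. The transporter gene Abca1, the lipase gene Lipg and the lipid droplet gene Plin2 were higher in LPS, while Abcg1 and Apoe were lower. Beside Abca1 and Lipg, 3 of the 8 other members were called at an adjusted p (FDR) under 0.05, and 42.0% of all 12369 genes tested were. Of all called genes 48.2% were higher, and 27.7% with scaling to library size alone, which moved the median log2 fold change of all genes from -0.04 to -0.32. The median over the 10, which holds Abca1 and Lipg, was 0.28 on the log2 scale in the main fit.

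Of the receptors, Nr1h2 rose in LPS+TM7nox against DMSO, and Nr1h3 passed no test in RNA. Nr1h2 encodes LXR beta, the form found in most tissues. In DMSO replicates 1 to 4 it stood at 46.0, 33.7, 36.6 and 35.2 CPM, in LPS at 66.5, 44.4, 51.6 and 44.2, and in LPS+TM7nox at 82.5, 62.5, 59.5 and 60.8. Same-numbered libraries kept this order in 4 of 4 sets, while the groups of LPS and DMSO overlapped. The log2 difference was 0.42 for LPS against DMSO (SE 0.173, FDR 0.0645). For LPS+TM7nox against LPS it was 0.36 (SE 0.171, FDR 0.2). The first was called in 7 of 15 alternatives, which include DESeq2 (FDR 0.0354), no filter (0.0248) and the omission of RNA DMSO replicate 1 (0.0171) or RNA LPS replicate 4. The other was called in replicates 3 and 4 alone and with the block. With the replicate number as a block both passed the threshold, at FDRs of 0.00113 and 0.00493 (ranges over 15 alternatives 0.00113 to 0.632 and 0.00493 to 0.717). LPS+TM7nox against DMSO passed in the main test, with 0.78 (SE 0.174, FDR 0.00194) and no overlap. It did not pass in replicates 1 and 2 alone (FDR 0.0719) or with scaling to library size alone (FDR 0.0902, the highest of 15 alternatives down to 4.8e-06).

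Nr1h3 encodes LXR alpha, which is known from macrophages and liver. It stood at 12.5, 4.32, 3.38 and 4.11 CPM in DMSO, 5.13, 7.70, 3.61 and 4.34 in LPS, and 8.21, 4.26, 2.97 and 3.65 in LPS+TM7nox. The high DMSO value rests on 59 counts in the shallowest library. The 3 groups overlapped, and no RNA comparison passed the threshold (FDR 0.818 for LPS against DMSO and 0.893 for LPS+TM7nox against LPS).

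The efflux transporters moved in opposite directions in LPS. Abca1 loads cholesterol and phospholipid onto lipid-poor apolipoprotein A-I. In DMSO it stood at 7.63, 9.27, 10.4 and 9.66 CPM, and in LPS at 58.0, 76.9, 55.0 and 64.6. No LPS library came near the DMSO libraries, and same-numbered ratios lay between 5.29 and 8.30. The log2 fold change was 2.74 (SE 0.143). It is given without a test, since the LPS libraries also entered the contrast that chose the gene. Abcg1 passes cholesterol to larger HDL particles. It stood at 40.5, 63.4, 83.9 and 88.9 CPM in DMSO and 36.2, 42.6, 38.6 and 41.2 in LPS, which is lower in 4 of 4 pairs though the groups overlapped through DMSO replicate 1. Its log2 fold change was -0.84 (SE 0.218, FDR 0.00658). It missed the threshold in replicates 1 and 2 alone (FDR 0.376, the highest of 15 alternatives down to 5.12e-06).

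Among the lipoprotein and lipid enzyme genes, Lipg had the widest range. Lipg (ENSMUSG00000053846, chromosome 18, 75072393 to 75094339, no overlapping gene) encodes endothelial lipase, a phospholipase that acts on HDL. In DMSO it had 0, 0.129, 0.0965 and 0.0329 CPM, which is 9 counts over the 4 libraries, and the 0 of replicate 1 allows up to 0.636 CPM (3 counts). In LPS it reached 30.8, 41.7, 88.2 and 93.0 CPM. The fitted log2 fold change of 9.45 (SE 0.768) rests on those 9 counts and, as for Abca1, is given without a test. Replicates 3 and 4 exceeded replicates 1 and 2 in LPS and in LPS+TM7nox, in RNA and RIP alike.

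Apoe encodes apolipoprotein E, an acceptor of cellular cholesterol, and was among the lowest members in these cells. It stood at 3.6, 1.11, 2.48 and 1.08 CPM in DMSO and 0.812, 0.516, 0.790 and 0.530 in LPS, lower in every LPS library than in any DMSO library. The log2 fold change was -1.59 (SE 0.588, FDR 0.0429). The call was lost in 7 of 15 alternatives, among them the one without RNA DMSO replicate 1, where the fold change was -1.24 (range of FDRs 0.00533 to 0.376). The libraries whose omission ended the call were RNA DMSO replicates 1 and 3 and each of the 4 RNA LPS libraries.

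Pltp encodes the phospholipid transfer protein and Lpcat3 an enzyme that puts polyunsaturated chains into phospholipids. Pltp stood at 12.9 to 21.1 CPM in DMSO and 17.4 to 26.7 in LPS, and Lpcat3 at 8.05 to 14.5 and 12.3 to 16.9. The groups overlapped, and neither passed the threshold (FDR 0.337 and 0.2). Mylip, also called Idol, encodes a ubiquitin ligase that removes the LDL receptor. It stood at 9.75, 10.4, 8.11 and 7.07 CPM in DMSO and 6.58, 7.09, 10.0 and 8.86 in LPS, a log2 fold change of -0.14 (FDR 0.626) that was 0.32 in replicates 3 and 4 alone. Plin2 encodes a coat protein of lipid droplets. It rose from 64.6, 32.6, 38.4 and 38.8 CPM to 99.3, 67.2, 129 and 127, with no overlap. Its log2 fold change was 1.25 (SE 0.265, FDR 0.00159), and it missed the threshold in replicates 1 and 2 alone (FDR 0.253, range of 15 alternatives 2.16e-14 to 0.253).

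**Figure D2:**
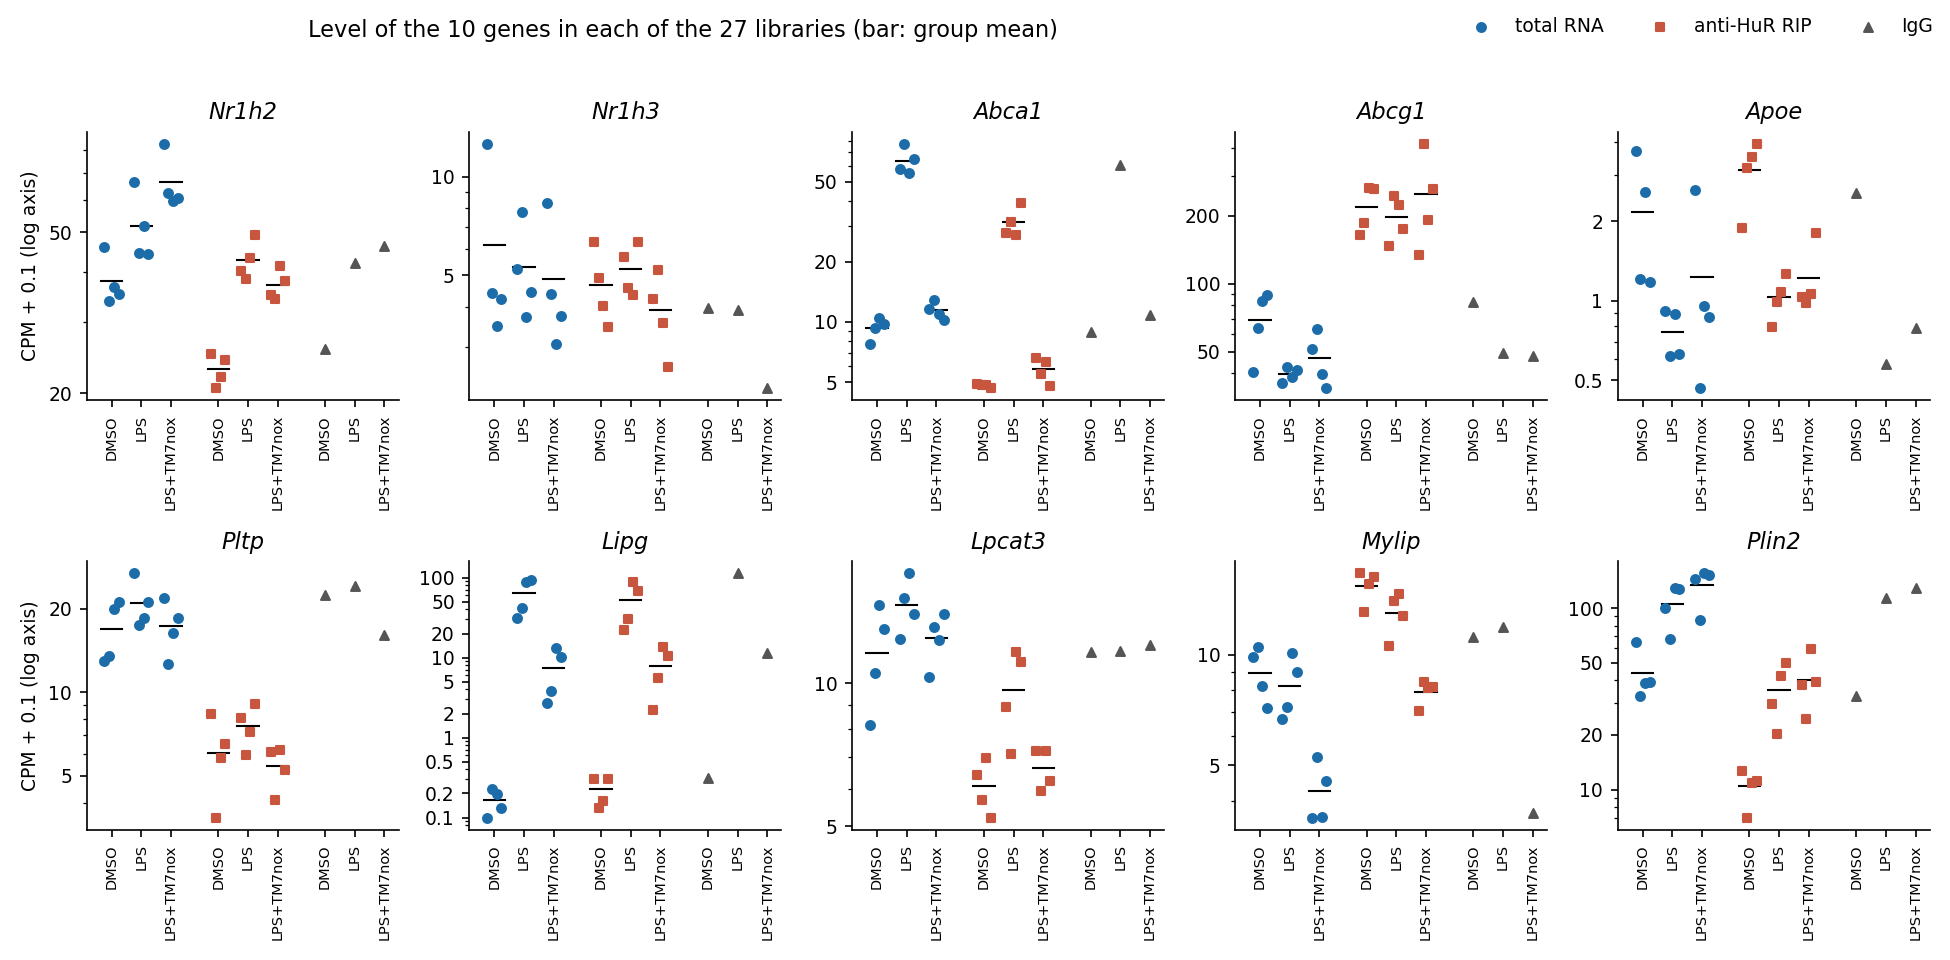
CPM (log axis, 0.1 added) of the 10 genes in each of 27 libraries, by treatment and assay; points are libraries, black bars are means of 4, each IgG group is 1 library, and each panel has its own scale. Abca1 in RNA sat between 55.0 and 76.9 CPM in LPS and at or below 12.8 in the other treatments, and Abcg1 in RIP lay above all RNA libraries.

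The effect of TM7nox in activated cells was read from LPS+TM7nox against LPS in total RNA. Abca1, Lipg, Mylip and Pltp were lower with TM7nox in all 4 pairs of same-numbered libraries, and Pltp did not pass the threshold (FDR 0.444). Over all 4 replicates with no block, no member was called higher by edgeR (0 at an unadjusted p under 0.05, and 0 by DESeq2). Nr1h2 was called higher with the replicate block (FDR 0.00493) and in replicates 3 and 4 alone (FDR 0.0254). Of all genes 13.8% were called. Abca1 and Lipg were chosen on this contrast, which leaves 1 of 8 other members called, and the median over the 10, -0.18 on the log2 scale, holds both of them.

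Abca1 stood at 11.5, 12.8, 10.9 and 10.1 CPM with TM7nox, against 55.0 to 76.9 in LPS. This is 0.179 of the LPS level in the fit (log2 fold change -2.48, SE 0.139), and 0.156 to 0.198 in same-numbered pairs. Against DMSO the log2 difference was 0.25 (SE 0.137), with TM7nox higher in 4 of 4 pairs at ratios of 1.05 to 1.51. Under scaling to library size alone it was -0.06. Lipg stood at 2.57, 3.74, 13 and 9.94 CPM, which is 0.117 of the LPS level (log2 fold change -3.10, SE 0.472) and 0.0834 to 0.147 in pairs. All 4 values exceeded the highest DMSO value of 0.129 CPM. The ratio to LPS was similar in replicates 1 and 2 alone (log2 -3.51) and 3 and 4 alone (-2.95).

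Mylip stood at 3.50, 5.18, 3.51 and 4.42 CPM with TM7nox, below every LPS and every DMSO library. Its log2 fold change against LPS was -0.97 (SE 0.205, FDR 0.00616), and against DMSO -1.10 (SE 0.208, FDR 0.000566). Against LPS it was -0.66 in replicates 1 and 2 alone, where it missed the threshold (FDR 0.547, range of 15 alternatives 0.000148 to 0.547). Against DMSO it missed it there as well (FDR 0.0526, the highest of 15 down to 1.11e-05).

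Nr1h2 against LPS is given above. The other members did not pass the threshold without a block, and of these Plin2 passed in replicates 3 and 4 alone (FDR 0.0258, the lowest of 15 alternatives up to 0.765). Plin2 stood at 145, 85.3, 155 and 151 CPM with TM7nox, higher than in the same-numbered LPS library in 4 of 4 pairs (ratios 1.19 to 1.46, FDR 0.449). Abcg1 stood at 51.1, 62.5, 39.6 and 34.3 CPM (FDR 0.530) and Apoe at 2.53, 0.367, 0.854 and 0.765 (FDR 0.459), overlapping LPS in each case. Pltp lay between 12.5 and 21.8 CPM, below the same-numbered LPS library in 4 of 4 pairs (ratios 0.718 to 0.88, FDR 0.444). Lpcat3 lay between 10.2 and 13.9 CPM (FDR 0.425).

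LPS+TM7nox against DMSO combines LPS with the compound. In RNA, beside Lipg 4 of the 8 members not chosen on TM7nox were called, where 47.3% of all genes were. Plin2 rose by 1.60 (SE 0.267, FDR 0.000208), and missed the threshold in replicates 1 and 2 alone (FDR 0.0610, the highest of 15 alternatives down to 2.77e-22). Nr1h2 rose and Mylip fell, as given above, and Lipg was higher (log2 6.35). Abcg1 was lower, at -0.59 (SE 0.217, FDR 0.0373), which held in 9 of 15 alternatives (FDR 2.62e-06 to 0.773) and was 0.13 in replicates 1 and 2 alone. Leaving out any of RNA DMSO replicates 3 or 4, or RNA LPS+TM7nox replicates 1, 3 or 4, ended that call. Apoe was below the same-numbered DMSO library in 4 of 4 pairs (ratios 0.331 to 0.708) and missed the threshold (log2 difference -0.83, FDR 0.254). The replicate block gave a call, at -1.01 (FDR 0.0374), and so did leaving out RNA LPS+TM7nox replicate 1, at -1.51 (FDR 0.0297, range of 15 alternatives 0.0297 to 0.739).

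In RIP libraries the same comparisons measure RNA recovered with anti-HuR, with no correction for its level in the cells. From DMSO to LPS, Abca1, Lipg, Plin2, Nr1h2 and Lpcat3 were higher and Apoe was lower. Beside Abca1 and Lipg these were 4 of 8 members, and 44.7% of 13614 genes were called. The share of called genes that were higher was 52.6%, and 16.8% with scaling to library size alone, where the median of all genes was -0.63. The median over the 10 members, which holds Abca1 and Lipg, was 0.48 in the main fit, where that of all genes was 0.

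Abca1 stood at 4.81, 4.73, 4.76 and 4.57 CPM in DMSO, 27.8, 31.5, 26.9 and 39.2 in LPS, and 6.50, 5.42, 6.19 and 4.68 in LPS+TM7nox. The log2 changes, 2.71 for LPS against DMSO and -2.50 for LPS+TM7nox against LPS, lay within their errors (SE 0.174 each) of those in RNA. Lipg stood at 0.203, 0.0331, 0.0607 and 0.201 CPM in DMSO (13 counts in all), 21.8, 30.7, 87.4 and 67.1 in LPS, and 2.12, 5.42, 13.5 and 10.3 in LPS+TM7nox. Its changes were 8.69 and -2.77. In IgG, Abca1 followed the treatments at 8.77, 60.2 and 10.7 CPM, and Lipg at 0.208, 113 and 11.2 CPM. The IgG values were above the same-numbered RIP value in each treatment for Abca1, and in DMSO and LPS for Lipg.

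Nr1h2 rose in RIP from 24.9, 20.5, 21.8 and 24.1 CPM in DMSO to 40.0, 38.2, 43.0 and 49.1 in LPS, with no overlap. The log2 fold change was 0.88 (SE 0.145, FDR 0.000152). It was 0.26 with scaling to library size alone (FDR 0.225, the highest of 15 alternatives down to 5.18e-09). The median of all genes moved from 0 to -0.63 there. Plin2 rose from 12.6, 6.91, 10.7 and 11.1 CPM to 29.4, 20.1, 41.9 and 49.5, by 1.75 (SE 0.291, FDR 0.000155). Lpcat3 lay at 5.12 to 6.86 CPM in DMSO and rose to between 6.99 and 11.5 in LPS, by 0.66 (SE 0.183, FDR 0.00824). It was 0.03 with scaling to library size alone, and missed the threshold there (FDR 0.910) and in replicates 1 and 2 alone (FDR 0.306, within a range down to 0.00165). Apoe fell from 1.79, 3.07, 3.40 and 3.82 CPM to 0.694, 0.893, 0.984 and 1.16, by 1.72 on the log2 scale (SE 0.322, FDR 0.000458). It was called in 15 of 15 alternatives, unlike in RNA. Abcg1 (-0.18, FDR 0.64) and Mylip (-0.27, FDR 0.168) did not pass the threshold. With scaling to library size alone both were called lower, at -0.82 (FDR 0.0083) and -0.9 (FDR 0.000266), where the median of all genes was -0.63.

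With TM7nox, Mylip and Lpcat3 were called lower than in LPS in RIP, which is 2 of the 8 members not chosen on the fall, where 16.2% of all genes were called. Abca1 and Lipg were lower as well, as given above. No member was called higher by edgeR (0 at an unadjusted p under 0.05, and 0 by DESeq2). Mylip stood at 10.5, 13.9, 14.6 and 12.7 CPM in LPS and 6.92, 8.33, 8.03 and 8.10 with TM7nox, with no overlap and a ratio of 0.550 to 0.659 in pairs. Its log2 fold change was -0.76 (SE 0.159, FDR 0.0042). It missed the threshold in replicates 1 and 2 alone (FDR 0.125) and 3 and 4 alone (FDR 0.0584), within a range of 0.000173 to 0.125. Lpcat3 changed from 8.83, 6.99, 11.5 and 11 CPM to 7.09, 5.83, 7.11 and 6.12, by -0.59 (SE 0.185, FDR 0.0395). That call was lost in 10 of 15 alternatives (FDR 0.0084 to 0.503). Omitting RIP LPS replicate 1, 3 or 4, or RIP LPS+TM7nox replicate 2, 3 or 4, was enough to lose it.

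Pltp stood at 7.96, 5.83, 7.09 and 8.98 CPM in LPS and 5.99, 4.00, 6.11 and 5.13 with TM7nox, lower in 4 of 4 pairs. Its log2 difference was -0.53 (SE 0.249, FDR 0.157), which passed the threshold with the replicate block (FDR 0.0211, the lowest of 15 alternatives that reached 0.513). Nr1h2 stood at 34.9, 34.1, 41.3 and 37.9 CPM with TM7nox, a log2 difference of -0.25 (SE 0.144, FDR 0.266), while in RNA the difference was 0.36. It was lower in 4 of 4 pairs in RIP (ratios 0.772 to 0.96) and higher in 4 of 4 in RNA (1.15 to 1.41). Plin2 (24.5 to 59.4 CPM), Abcg1 (133 to 414), Apoe (0.881 to 1.71) and Nr1h3 (2.52 to 5.08) overlapped their LPS libraries.

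**Figure D3:**
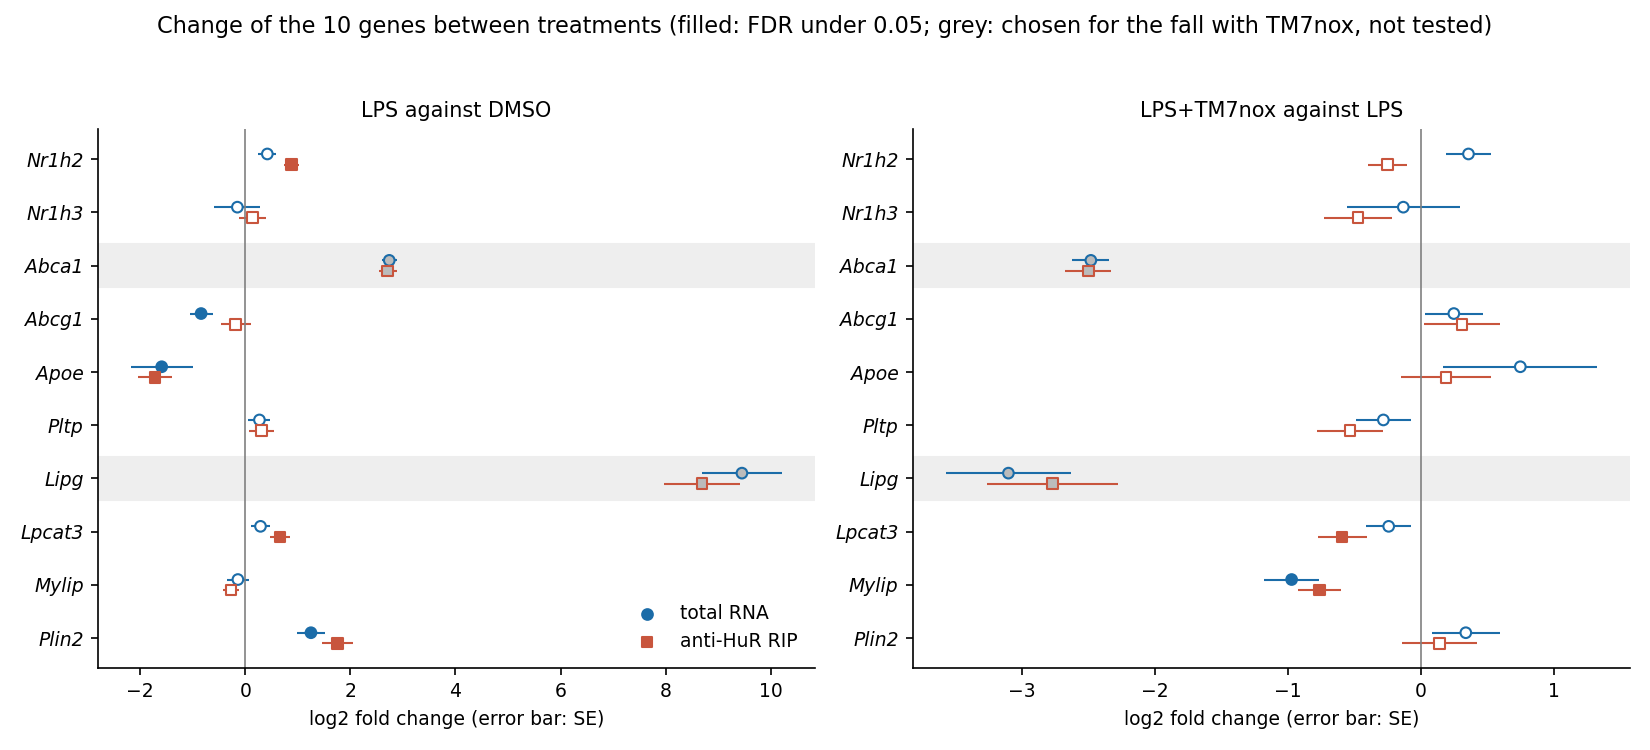
Log2 fold change with its SE for the 10 genes, LPS against DMSO on the left and LPS+TM7nox against LPS on the right, in total RNA (circles) and anti-HuR RIP (squares); filled symbols had an FDR under 0.05 and grey ones were not tested. Mylip lay at -0.97 in RNA and -0.76 in RIP with TM7nox, and Nr1h2 at 0.36 and -0.25.

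RIP over RNA within a treatment measures how much of a transcript anti-HuR recovered relative to the typical gene, with no absolute scale. Abcg1 and Mylip were recovered above the typical gene in each treatment, and Abca1, Pltp, Plin2 and Lpcat3 below it. Leaving out Abca1 and Lipg, 6 of 8 members were called in DMSO, 5 in LPS and 6 in LPS+TM7nox. Of 14311 genes, 70.4%, 63.7% and 69.9% were called. The median size of the log2 ratios of all 10 members, without sign, was 0.87, 0.64 and 0.91, and that of all genes 1.22, 1.00 and 1.20. With scaling to library size alone the median of all genes was -0.72, -1.06 and -1.07, and the higher share of called genes fell from 52.6% to 34.7%, from 51.7% to 25.8% and from 50.3% to 29.6%.

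Abcg1 stood in RIP at 164, 186, 265 and 261 CPM in DMSO, 147, 244, 222 and 174 in LPS, and 133, 414, 190 and 263 in LPS+TM7nox. These values exceeded the RNA libraries of the same treatment without overlap, by 2.93 to 4.05 times, 4.06 to 5.75 times and 2.60 to 7.67 times in same-numbered pairs. The log2 ratios were 1.75 (SE 0.291, FDR 8.61e-06), 2.31 (SE 0.296, FDR 2.51e-07) and 2.40 (SE 0.297, FDR 1.08e-07). They were called in each of 15 alternatives, between 1.00 and 2.65. In IgG, Abcg1 stood at 82.9, 49.3 and 47.5 CPM.

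Mylip stood in RIP at 16.6, 13, 15.5 and 16.2 CPM in DMSO, with log2 ratios of 0.92 (SE 0.179, FDR 7.09e-05) there, 0.66 (SE 0.178, FDR 0.00223) in LPS and 0.88 (SE 0.184, FDR 0.000151) in LPS+TM7nox. RIP exceeded the same-numbered RNA in 12 of 12 pairs. With scaling to library size alone the ratios were 0.14, -0.34 and -0.11, so that the direction in LPS and LPS+TM7nox holds relative to the typical gene only. The calls were also lost in replicates 1 and 2 alone in DMSO (FDR 0.103) and LPS+TM7nox (FDR 0.0541) and, in LPS, with no filter on low counts (FDR 0.0541). Over 15 alternatives the FDRs ranged up to 0.488, 0.0816 and 0.59.

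Plin2 had the lowest ratios, -1.93 (FDR 1.84e-06), -1.59 (FDR 2.38e-05) and -1.77 (FDR 4.53e-06) in DMSO, LPS and LPS+TM7nox. Pltp followed with -1.41, -1.47 and -1.71, where the highest FDR was 1.06e-05. In LPS and LPS+TM7nox the gap between Plin2 and Pltp was smaller than either SE (0.238 to 0.281). Without RIP LPS+TM7nox replicate 2, Plin2 was at -1.55 and Pltp at -1.57 in LPS+TM7nox. The ratios of Abca1 were -0.88 (SE 0.167, FDR 4.92e-05) in DMSO, -1.02 in LPS and -1.01 in LPS+TM7nox, and RIP was 0.410 to 0.630 of RNA over all 12 pairs. Lpcat3 had -0.86 (FDR 0.000442), -0.61 (FDR 0.00917) and -0.94 (FDR 0.000187). In replicates 1 and 2 alone Lpcat3 was not called in DMSO (FDR 0.168, down to 5.81e-08 over 15 alternatives) or in LPS (FDR 0.0539, down to 6.08e-08). These genes hold 6 (Abca1), 1 (Pltp) and 0 (Plin2 and Lpcat3) of the AUUUA pentamers counted above, and Abcg1 and Mylip 3 and 2.

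Nr1h2 was below the typical gene in DMSO, at -0.60 (SE 0.132, FDR 0.00028), and in LPS+TM7nox, at -0.86 (SE 0.131, FDR 2.8e-06). In LPS it was at -0.27 (SE 0.130, FDR 0.0750), and with the replicate block at -0.26 (FDR 0.0409, range of 15 alternatives 1.69e-06 to 1.00). The block was 1 of 4 alternatives that gave a call for Nr1h2 in LPS. The others were leaving out RNA LPS replicate 2 (FDR 0.0446) or 4 (FDR 0.046), and scaling to library size alone (-1.29). Apoe and Nr1h3 were not called in any treatment. Apoe in DMSO was called above the typical gene without RNA DMSO replicate 1 (1, FDR 0.0438) and in replicates 3 and 4 alone (1.07, FDR 0.0258). Nr1h3 was called lower in all 3 treatments with scaling to library size alone (-1, -1.01 and -1.36, highest FDR 0.0271), where the median of all genes was -0.72, -1.06 and -1.07. For Lipg in DMSO the ratio rests on 13 counts in RIP and 9 in RNA.

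**Figure D4:**
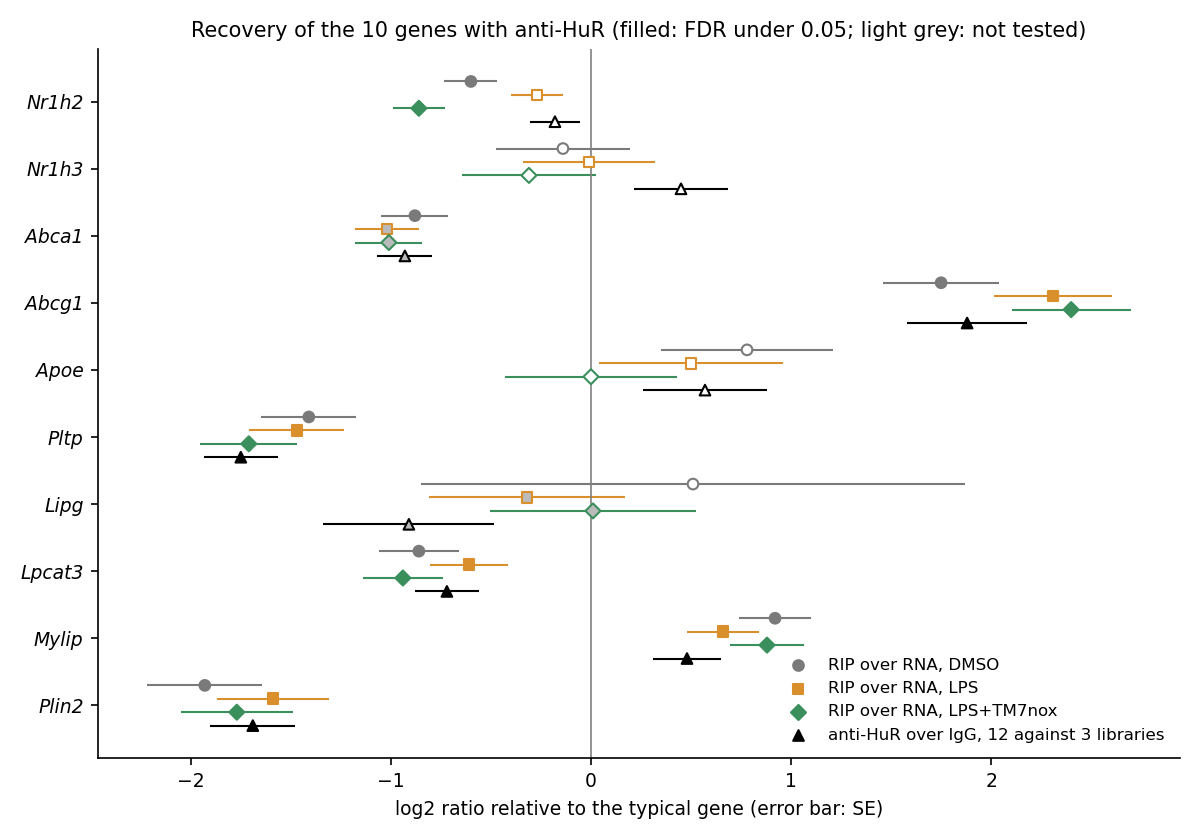
Log2 ratio of anti-HuR RIP over total RNA by treatment, and of anti-HuR over IgG over all treatments (triangles), with SE; filled symbols had an FDR under 0.05, and light grey ones (Abca1 and Lipg outside DMSO) were not tested. Abcg1 sat between 1.75 and 2.40, and Plin2 between -1.93 and -1.59.

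An interaction term tested whether recovery moved apart from RNA level from 1 treatment to another. No member was called by edgeR, for LPS against DMSO (0 at an unadjusted p under 0.05, and 0 by DESeq2) or for LPS+TM7nox against LPS (1 at an unadjusted p under 0.05, and 0 by DESeq2). Of all genes 0.0419% and 0.00699% were called, so few calls were made anywhere. The member at an unadjusted p under 0.05 was Nr1h2, whose ratio was lower with TM7nox by -0.59 on the log2 scale (SE 0.185, p 0.00374, FDR 0.871). For Abca1 the change with TM7nox was 0.01 (SE 0.248) and for Lipg 0.33 (SE 0.710), as descriptions. Both values are smaller than their SE, and both changed sign under some alternatives.

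Against IgG, 5 of the 8 members other than Abca1 and Lipg were called over 12 anti-HuR and 3 IgG libraries, where 68.1% of 14973 genes were called. Abcg1 was higher with anti-HuR by 1.88 (SE 0.298, FDR 1.53e-05), and so was Mylip, by 0.48 (SE 0.172, FDR 0.0187). The call of Mylip was lost without the IgG library of DMSO or of LPS+TM7nox (FDR range of 20 alternatives 0.00105 to 0.239), and with scaling to library size alone it was called in the opposite direction, at -0.54 (FDR 0.00634). Pltp (-1.75, FDR 7.91e-08), Plin2 (-1.69, FDR 8.09e-07) and Lpcat3 (-0.72, FDR 0.00055) were lower with anti-HuR than with IgG. Nr1h2 (-0.18, FDR 0.23), Nr1h3 (0.45, FDR 0.0994) and Apoe (0.57, FDR 0.11) were not called. Nr1h3 was called higher with RLE scaling (FDR 0.0339), by DESeq2 (FDR 0.0321) and without RIP LPS+TM7nox replicate 4 (FDR 0.0406). Apoe was called higher without RIP DMSO replicate 1 (FDR 0.0489). With scaling to library size alone Nr1h3 (-0.56, FDR 0.0405) and Nr1h2 (-1.21) were called lower. Abca1 was at -0.93 (SE 0.138) and Lipg at -0.91 (SE 0.427), without a test since the libraries that chose them enter here. Over 20 alternatives Lipg lay between -1.95 and -0.16. Within replicate 3, RIP over IgG for Lipg was 0.292 in DMSO (2 counts against 8), 0.773 in LPS and 1.21 in LPS+TM7nox. Its value of -0.91 therefore does not hold alike in each treatment. Of all called genes 49.7% were higher with anti-HuR, and 25.8% with scaling to library size alone, where the median of all genes was -1.02. With 1 IgG library per treatment, all replicate 3, antibody and that replicate number are partly confounded.

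Other genes of the pathway were taken as lists, 4 of which are given here by counts in total RNA. Of all genes, 42.0% were called in LPS against DMSO and 13.8% in LPS+TM7nox against LPS, and nothing particular to a list is read from its counts. Of 15 other LXR target genes, 8 were tested, and in LPS 2 fell and 6 were not called. Scd2, a fatty acid desaturase, fell from 358 ± 133 to 32.7 ± 3.99 CPM (SD, n = 4 each, FDR 2.32e-07). With TM7nox against LPS none of the 8 was called by edgeR (1 higher and 1 lower at an unadjusted p under 0.05, and the same numbers by DESeq2). Of 11 receptor partners, coregulators and other nuclear receptors (Ppard among them), 9 were tested, and 5 fell and 1 rose in LPS. Rxra, an RXR partner of LXR, fell from 6.31 ± 1.60 to 1.76 ± 0.756 CPM (FDR 0.00286), and Ppard rose from 5.93 ± 0.398 to 16.9 ± 5.24 (FDR 5.77e-05). With TM7nox 2 of the 9 rose. Rxrb went from 13.5 ± 1.56 to 21.8 ± 1.84 CPM (FDR 0.00205), and Ppard to 38.2 ± 5.61 (FDR 0.00126).

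Of 16 genes of cholesterol uptake, storage and transport, 14 were tested, with 4 higher and 4 lower in LPS. The scavenger receptor gene Msr1 rose from 159 ± 10.8 to 395 ± 1.67 CPM (FDR 3.67e-07), and Lrp8 fell from 45.9 ± 3.13 to 11.7 ± 7.21 (FDR 0.000628). With TM7nox 2 rose and 1 fell. Npc1, which exports cholesterol from lysosomes, rose from 36.0 ± 3.40 to 64.8 ± 3.23 CPM (FDR 0.000247). Nceh1, a cholesteryl ester hydrolase, rose from 34.4 ± 2.39 to 55.5 ± 13.3 (FDR 0.00707), and Msr1 fell to 286 ± 14.6 (FDR 0.00851). Of 13 other lipid droplet and triglyceride genes, 7 were tested. In LPS 2 rose, Hilpda from 1.79 ± 0.466 to 17.7 ± 7.23 CPM (FDR 3.05e-06), and with TM7nox Plin3 rose (FDR 0.0278) and the hormone-sensitive lipase gene Lipe fell (FDR 0.0292).

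The medians of the 4 lists with TM7nox against LPS were -0.05, 0.20, -0.14 and -0.26 on the log2 scale in the order given, and 0.00 over all genes. In replicates 1 and 2 alone, none of the genes named here for TM7nox in RNA passed the threshold, with FDRs from 0.0602 (Ppard) to 0.552 (Lipe). Nor did Rxra in LPS against DMSO (FDR 0.0961). With no filter on low counts Msr1 (FDR 0.0578) and Lipe (FDR 0.0597) lost their TM7nox calls. The calls of Plin3 and Lipe were also lost when single RNA libraries were left out: LPS replicate 2 or 3 or LPS+TM7nox replicate 2, 3 or 4 for Plin3 (highest FDR 0.0911), and LPS replicate 1, 2 or 3 or LPS+TM7nox replicate 3 or 4 for Lipe (0.0951).

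The genes with patterns most like those of Abca1 and Lipg were found by Pearson correlation of log2 CPM, as a description. Over 24 RNA and RIP libraries and 8322 coding genes, Abca1 was followed most closely by Csf2rb (r = 0.956), P2ry6 (0.953) and Tnip3 (0.948). Over the 12 RNA libraries and 8256 genes these were Klf7 (0.973), Itpkb (0.972) and Pfkfb3 (0.968). For Lipg they were Serpinb2 (0.984), Rnd1 (0.982) and Pde4b (0.979) over 24 libraries, and Pde4b (0.993), Sh3pxd2b (0.992) and Gramd1a (0.991) over 12. The points share 3 treatments, and libraries of 1 sample set differ in depth, so these values describe a shared treatment pattern.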

How the data were processed

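Total RNA, anti-HuR RIP and IgG libraries of RAW264.7 cells used 7 ng of RNA each and a SMART-Seq Stranded kit, with RNA taken from cell pellets for RNA and from beads for RIP, per the labels' protocols. The authors deposited raw counts, whole numbers of reads per gene for 55483 genes in 27 libraries. The submitters' processing notes name FastQC 0.11.9, STAR, HTSeq, DESeq2 and GRCm39. The sources used here name no annotation release or strand setting, and without strand, reads of overlapping genes on opposite strands cannot be told apart. No molecular identifiers are stated, so PCR copies count separately.

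Tests across genes used edgeR 4.0.16 under R 4.3.3 (quasi-likelihood F test, two-sided, TMM, filterByExpr with a minimum count of 10, Benjamini-Hochberg over all genes tested, called under 0.05). Each FDR printed for a gene comes from it, except where DESeq2 is named, and ranges over alternatives include DESeq2's adjusted p. RNA and RIP libraries were fitted as 12 each, RIP over RNA as 24, and anti-HuR against IgG as 15 with treatment as a covariate. CPM are on 1 TMM scale over the 27 libraries. A count of 0 was taken to allow 3 counts, for counting error only. Depths were 2.73 M to 41.4 M counts, so values on fewer than 10 counts, such as Lipg in DMSO, are imprecise. Of the identifiers, 51731 (93.2%) matched GENCODE M39. The scripts were tested on simulated data.

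Groups and replicate numbers came from the labels. Same-numbered libraries deviated together from their group means in all comparisons with 4 pairs (correlations 0.116 to 0.392). Differently numbered libraries lay between -0.3 and 0.208, so the ranges overlapped in part. The numbers were taken as pairing for descriptions. The main fits held no block, and the replicate block was an alternative. The others were other scaling, DESeq2 1.42.0, no filter, replicates 1 and 2 or 3 and 4 alone, and leaving out each library. Alternatives were run for the members and the named list genes.

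The members and gene lists were chosen with earlier results of these data known. The text names the 10 members, the 3 genes most like Abca1 and Lipg with a mean of at least 5 CPM (correlation of log2 CPM, prior count 2), and called list genes among the 3 with the largest change in each direction. The marker genes Lck, Cd2 and Pax5 were named besides, after their values had been seen. One item of the gene lists and 1 sequence are not reported here.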

Additional observations from a re-analysis of the deposited data

Results flagged for a closer look

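In 4 of the 60 groups of 4 libraries examined, 1 library stood apart from the other 3, by a gap that exceeded Dixon's critical value for 4 values. About 1 group in 20 does so by chance. Nr1h3 stood at 12.5 CPM in RNA DMSO replicate 1, the shallowest library, and at 3.38 to 4.32 in the others. Nr1h2 stood at 82.5 CPM in RNA LPS+TM7nox replicate 1, and at 59.5 to 62.5 in the others. Plin2 stood at 85.3 CPM in RNA LPS+TM7nox replicate 2, and at 145 to 155 in the others. Apoe stood at 1.71 CPM in RIP LPS+TM7nox replicate 4, and at 0.881 to 0.959 in the others.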

How the results depend on the processing

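The 10 members gave 1860 values under the alternatives, of which 1692 kept their direction and their side of the threshold. Another 42 lost a call, 34 gained one and 92 changed sign, 4 of them called values. The count of members called moved by over 1.5 times with pairs of replicates alone. These counts hold Abca1 and Lipg, whose part in them was set by their choice (Lipg alone in LPS+TM7nox against DMSO). In replicates 1 and 2 it was 2 for RNA in LPS against DMSO (5 in all), 1 for RNA in LPS+TM7nox against DMSO (5) and 2 for RIP in LPS+TM7nox against LPS (4). In replicates 3 and 4 it was 5 for RNA in LPS+TM7nox against LPS (3) and 2 for RIP in that comparison, so that no other member was called there in RIP in either pair. The sign changes include the following, which hold the 4 called values. With scaling to library size alone, Abca1 in RNA was at -0.06 in LPS+TM7nox against DMSO, and Mylip at -0.34 and -0.11 in RIP over RNA in LPS and LPS+TM7nox and at -0.54 against IgG. Abcg1 was at 0.13 in RNA in LPS+TM7nox against DMSO in replicates 1 and 2, and Mylip at 0.32 in RNA in LPS against DMSO in replicates 3 and 4. The cause was not tested. With the replicate block the members called in LPS+TM7nox against LPS were 4 for RNA and 5 for RIP, Abca1 and Lipg among them, and the genes called 3091 in place of 1704 and 4577 in place of 2212. Beside the values given above, the block changed no call of a member. Counts over all genes in replicates 1 and 2 alone were 1668 (5190 in all), 168 (1704) and 2246 (5850) for RNA in LPS against DMSO, LPS+TM7nox against LPS and LPS+TM7nox against DMSO, and 3392 (6090) and 789 (2212) for RIP in the comparisons with LPS. In replicates 3 and 4 they were 3489 for RNA and 1070 for RIP in LPS+TM7nox against LPS. The change of RIP over RNA by LPS called 6 genes, 67 by DESeq2, 27 with library size alone, 49 with no filter, 50 with the block, 0 and 13 in replicates 1 and 2 and 3 and 4, and 11 without RNA DMSO replicate 1. The higher share moved from 33.3% to 72.7% without RNA DMSO replicate 1, and to 7.41% with library size alone. The change of RIP over RNA by TM7nox called 1 gene, 0 to 5 under these settings, 3 without RIP LPS replicate 3 and 2 without RIP LPS+TM7nox replicate 1. The cause of these differences was not tested. Lipg in DMSO, at 9 and 13 counts, is limited by depth.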
